A study of Homo sapiens with 24 samples.

Results

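The genes described here are 54 genes chosen by name for their roles in mitosis, among them the Aurora kinases AURKA and AURKB, and for each gene the RefSeq accession with the highest mean count was read from the count table. Of the 54 genes, 38 had an accession with more than 1 CPM (count scaled to a common library size) in at least 2 libraries, and these 38 stood among 10167 accessions tested. RNA had been sequenced from Nalm6, an established B-cell precursor leukemia line, carrying shRNA against the histone methyltransferases G9a (EHMT2) or GLP (EHMT1), against the chromatin protein HP1γ (CBX3), or with a non-specific sequence (shNS). Each of the 4 lines was a puromycin-selected population infected with lentivirus, and each was treated for 8 h with ethanol or with 100 nM dexamethasone (dex), a synthetic glucocorticoid. The 8 conditions had 3 replicates each, made on different days, which gave 24 libraries of 9289533 to 14387770 counts. In such bulk samples, fewer cells in mitosis and less RNA per cell cannot be told apart.

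In mitosis the cyclin-dependent kinase CDK1 with its B-type cyclins starts chromosome condensation, condensins and topoisomerase shape and untangle the chromosomes, and kinesin motors build the spindle. Aurora A and PLK1 act at the spindle poles, Aurora B acts at the centromere within the chromosomal passenger complex, and the checkpoint proteins hold back CDC20, the activator of the anaphase-promoting complex, until every kinetochore is attached. The genes are transcribed mostly in G2 and M phase, and their promoters are known for CCAAT boxes and for the cell cycle genes homology region (CHR), through which they are repressed in resting cells.

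RefSeq promoter windows, 250 bases before to 50 bases after the start site on GRCh38.p14, were found for 47 of the 54 genes. A CHR, searched as TTTGAA or TTCGAA on both strands, lay in a window of 38 of the 47 genes (80.9%), against 19.5% of 27305 genes in the table. A CCAAT box, searched as CCAAT on both strands, lay in 34 (72.3%), against 39.7%. Both motifs were present for 27 genes (57.4%), against 9.02% of the table, and for 2 of 34 genes of DNA replication in S phase (5.88%). Of these 34 S-phase genes, 3 had a CHR (8.82%) and 19 a CCAAT box (55.9%). A CCAAT share above that of the table was thus not particular to the mitosis genes. The 2 motifs were counted separately, and neighbouring matches may share a base. The windows of 4 genes that differed between lines, as given further on, are printed with these letters in capitals. They lie at chr16:23678639-23678938 (PLK1, plus strand), chr1:43358731-43359030 (CDC20, plus strand), chr15:59104896-59105195 (CCNB2, plus strand) and chr17:40417847-40418146 (TOP2A, minus strand).
PLK1: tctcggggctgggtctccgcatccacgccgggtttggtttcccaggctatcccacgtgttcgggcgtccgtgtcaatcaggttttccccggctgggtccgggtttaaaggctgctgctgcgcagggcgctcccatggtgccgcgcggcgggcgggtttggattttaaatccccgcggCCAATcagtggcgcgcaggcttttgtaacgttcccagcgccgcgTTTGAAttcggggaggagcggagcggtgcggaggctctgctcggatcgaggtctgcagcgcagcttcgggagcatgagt
CDC20: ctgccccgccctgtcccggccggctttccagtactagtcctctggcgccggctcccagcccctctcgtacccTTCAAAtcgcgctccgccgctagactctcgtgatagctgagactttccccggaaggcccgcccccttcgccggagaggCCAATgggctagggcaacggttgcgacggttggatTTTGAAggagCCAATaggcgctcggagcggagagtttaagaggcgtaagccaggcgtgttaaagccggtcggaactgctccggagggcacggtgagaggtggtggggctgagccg
CCNB2: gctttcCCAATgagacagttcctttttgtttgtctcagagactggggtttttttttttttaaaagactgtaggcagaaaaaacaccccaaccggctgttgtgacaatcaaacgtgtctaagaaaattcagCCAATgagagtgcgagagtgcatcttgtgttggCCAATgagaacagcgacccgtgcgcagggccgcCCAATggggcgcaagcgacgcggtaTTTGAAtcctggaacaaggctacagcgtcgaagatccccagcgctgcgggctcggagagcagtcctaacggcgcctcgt
TOP2A: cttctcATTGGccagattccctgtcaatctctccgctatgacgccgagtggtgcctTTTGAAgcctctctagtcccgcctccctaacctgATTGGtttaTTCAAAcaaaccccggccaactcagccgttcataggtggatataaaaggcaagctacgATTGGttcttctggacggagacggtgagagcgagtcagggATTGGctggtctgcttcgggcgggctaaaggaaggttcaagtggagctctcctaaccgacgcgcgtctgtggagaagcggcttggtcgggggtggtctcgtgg

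In PLK1 and CCNB2 the CHR began at position -29 from the start site, and in CDC20 the nearer of 2 began at -65. In TOP2A the nearer of 2 began at -151. All CCAAT matches lay before the start site, 1 in PLK1, 2 in CDC20, 4 in CCNB2 and 4 in TOP2A. These are matches of letters and were not tested as binding sites.

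Which of the genes could be measured varied with how many RefSeq accessions the table lists for them. All 19 genes with 1 accession were tested, with mean counts of 899.6 to 24250 per library. Of the 35 genes with several accessions, 19 had a tested accession, and only ASPM (spindle pole), MKI67 (the Ki-67 protein that coats mitotic chromosomes) and NEK2 (a centrosome kinase) had a mean count of at least 100. The other 16 of these had means of 7.833 to 92.29 counts. Over the whole table, a mean count of at least 50 was reached by 27.8% of accessions of genes with 1 accession, by 8.61% where there were 2, by 3.93% where there were 3, and by 1.22% where there were 4 or more. The counting mode is not given in the sources used here, and the cause of the low values was not tested. Counts were not divided by length, so levels are not compared between genes.

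**Figure D1:**
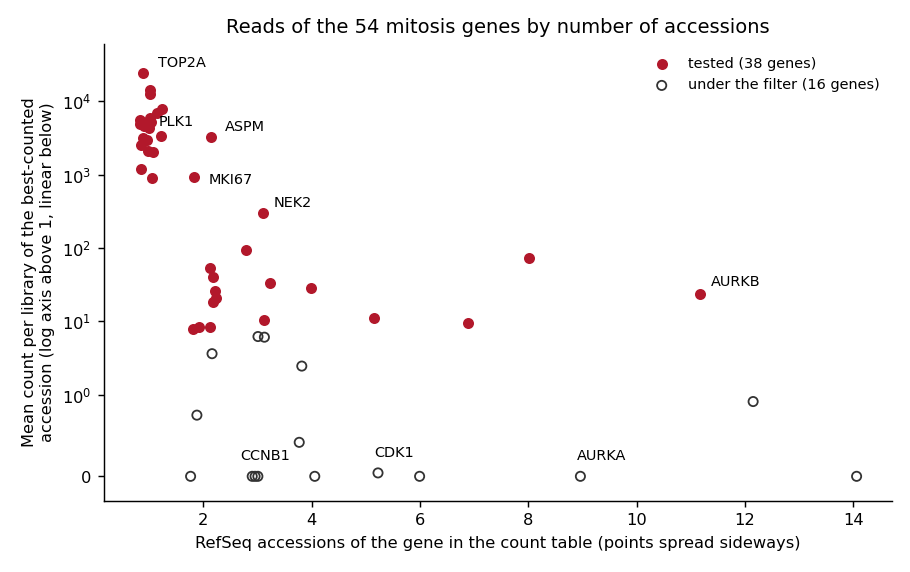
Mean count per library of the best-counted accession (vertical axis, logarithmic above 1 count and linear below) against the number of RefSeq accessions of the gene (horizontal axis) for the 54 genes, 1 point each. Filled points are the 38 tested genes and open points the 16 under the filter. Genes with 1 accession lie between 899.6 and 24250 counts, while AURKA, with 9 accessions, lies at 0.

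Aurora A could not be followed in these data. All 9 AURKA accessions were listed at 0 in every library, as were all accessions of CCNB1 (cyclin B1), the checkpoint kinases BUB1 and TTK, the central spindle kinesin KIF23, the spindle proteins NUSAP1 and HMMR, and the cytokinesis factor ECT2. A further 8 genes, CDK1, BIRC5 (survivin), KIF2C, NCAPH, SKA1, PTTG1 (securin), DLGAP5 and RACGAP1, had some reads but no accession with a mean above 6.208 counts. These 16 genes had 2 to 14 accessions each. Nalm6 cells divide, and a value of 0 for CDK1 or CCNB1 accessions is a value of the table and not a measure of absent expression.

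The best-counted accessions were those of TOP2A, the topoisomerase that untangles sister chromatids, at a mean of 2170 CPM, NCAPD2, a condensin subunit, at 1280 CPM, and CENPF, a kinetochore protein, at 1110 CPM. This is an order of counts and not of expression. INCENP (0.697 CPM) and CENPA (0.744 CPM), both of the centromere, and CENPE (0.763 CPM), a kinetochore motor, had few reads. AURKB was represented by NM_001313951, 1 of 11 accessions, with a mean of 23.92 counts and a range of 8 to 43 over the libraries. The 21 genes with a mean of at least 500 counts carry most of what follows, since their median standard error in a comparison of 2 conditions was 0.085 on the log2 scale, against 0.28 to 0.32 for the other 17 tested genes.

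Many of these genes differed together between replicate numbers. For the 19 genes with 1 accession, replicate 2 exceeded replicate 1 by a median of 0.26 on the log2 scale, in 19 of 19 genes, and replicate 3 exceeded replicate 1 by 0.12, in 15 of 19. For PLK1, replicate 2 lay 0.57 and replicate 3 lay 0.43 above replicate 1. The labels place the replicates of a condition on different days but do not say that a number stands for the same day in every line, so the number is used here as a number. All comparisons were made within replicate numbers, as a block in edgeR's quasi-likelihood test and Benjamini-Hochberg adjustment over the 10167 accessions. A gene is said to have risen or fallen where its adjusted p was at most 0.05.

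In shGLP cells a minority of the tested mitosis genes were higher than in shNS cells and none was lower, and the smallest p values were those of PLK1, the polo-like kinase of mitotic entry and spindle assembly, and CDC20. In dex, 5 of the 38 tested genes were higher in shGLP than in shNS cells and 0 were lower, while 5.77% of all tested accessions passed, 3.31% higher and 2.46% lower. In ethanol 5 were higher and 0 lower, with 3.61% of all accessions passing, 1.93% higher and 1.68% lower. Among accessions with a mean of at least 500 counts, 5.47% were higher in dex and 3.19% in ethanol, beside 5 of 21 mitosis genes in each treatment. The median difference over the 38 genes was 0.21 in dex and 0.24 in ethanol on the log2 scale, against 0.03 and 0.01 over all tested accessions. Of the genes with a mean of at least 500 counts, 20 of 21 were above shNS in dex and 21 of 21 in ethanol. These genes come from the same libraries and moved together, so the counts are a description and not a test. Without the replicate block 0 of the 38 passed in either treatment.

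PLK1 (NM_005030, exons of the gene at chr16:23688977-23701688, GRCh37, plus strand) had 245, 437 and 393 CPM in the ethanol-treated shNS replicates 1, 2 and 3 and 447, 545 and 508 CPM in shGLP. In dex it had 225, 387 and 341 CPM in shNS and 393, 555 and 453 CPM in shGLP. All 3 shGLP libraries lay above all 3 shNS libraries in either treatment. The difference was 0.52 ± 0.086 (SE) on the log2 scale in ethanol (adjusted p = 0.000466, edgeR) and 0.58 ± 0.086 in dex (adjusted p = 8.81e-05), or 1.43-fold and 1.49-fold. The PLK1 calls in shGLP held in all 24 fits that each left out 1 library.

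CDC20 (NM_001255, chr1:43824652-43828874, GRCh37, plus strand) had 344, 562 and 527 CPM in ethanol-treated shNS cells and 548, 659 and 653 CPM in shGLP, groups that overlapped although shGLP was higher at each replicate number. In dex the values were 329, 471 and 453 CPM in shNS and 478, 654 and 564 CPM in shGLP, without overlap. CDC20 rose by 0.40 ± 0.082 (SE) in ethanol (adjusted p = 0.0035, edgeR) and by 0.44 ± 0.082 in dex (adjusted p = 0.000989). The ethanol call was lost without replicate 1 of shNS or of shGLP in ethanol (adjusted p of 0.0523 to 0.0575), and the dex call held in all 24 such fits. The ethanol call was also lost without replicate 1 or replicate 3 of every condition.

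TOP2A (NM_001067, chr17:38544777-38574148, GRCh37, minus strand) had 1700, 2280 and 1930 CPM in ethanol-treated shNS cells and 2460, 2640 and 2260 CPM in shGLP. In dex it had 1680, 2350 and 2020 CPM in shNS and 2420, 2740 and 2190 CPM in shGLP. The groups overlapped in both treatments, and shGLP was the higher at each of the 3 replicate numbers. TOP2A rose by 0.32 ± 0.074 (SE) in ethanol (adjusted p = 0.0104, edgeR) and by 0.29 ± 0.074 in dex (adjusted p = 0.0186). These calls were lost without replicate 1 of either line in the treatment concerned, and in dex also without replicate 2 of shGLP, with adjusted p of 0.103 to 0.136 in ethanol and 0.0672 to 0.186 in dex. The ethanol call was also lost without replicate 1 or replicate 3 of every condition. The dex call was lost whichever replicate number was left out.

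The remaining calls in shGLP were each made in 1 treatment. KIF20A, a motor of the central spindle, had 120, 191 and 173 CPM in dex-treated shNS cells and 201, 234 and 193 CPM in shGLP, just without overlap, a difference of 0.40 ± 0.10 (SE, adjusted p = 0.0203, edgeR). Its call was lost without dex replicate 1 of shNS or of shGLP (adjusted p of 0.165 to 0.188). It was also lost whichever replicate number was left out of every condition. CCNB2, cyclin B2, had 235, 305 and 276 CPM in dex-treated shNS and 315, 374 and 284 CPM in shGLP, overlapping groups that differed by 0.25 ± 0.073 (adjusted p = 0.0412, edgeR).

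KIF4A, a motor that binds chromosome arms, had 205, 261 and 244 CPM in ethanol-treated shNS and 279, 315 and 280 CPM in shGLP, a difference of 0.31 ± 0.085 (SE, adjusted p = 0.0435, edgeR). MKI67 had 67.6, 81.3 and 64.6 CPM in ethanol-treated shNS and 110, 95.9 and 85.0 CPM in shGLP, a difference of 0.45 ± 0.13 (adjusted p = 0.0467, edgeR). The groups of both genes did not overlap. Of the 24 fits that each left out 1 library, the call of CCNB2 was lost in 13, that of KIF4A in 13 and that of MKI67 in 19, so these calls sat at the threshold. Each of them was also lost whichever replicate number was left out of every condition.

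**Figure D2:**
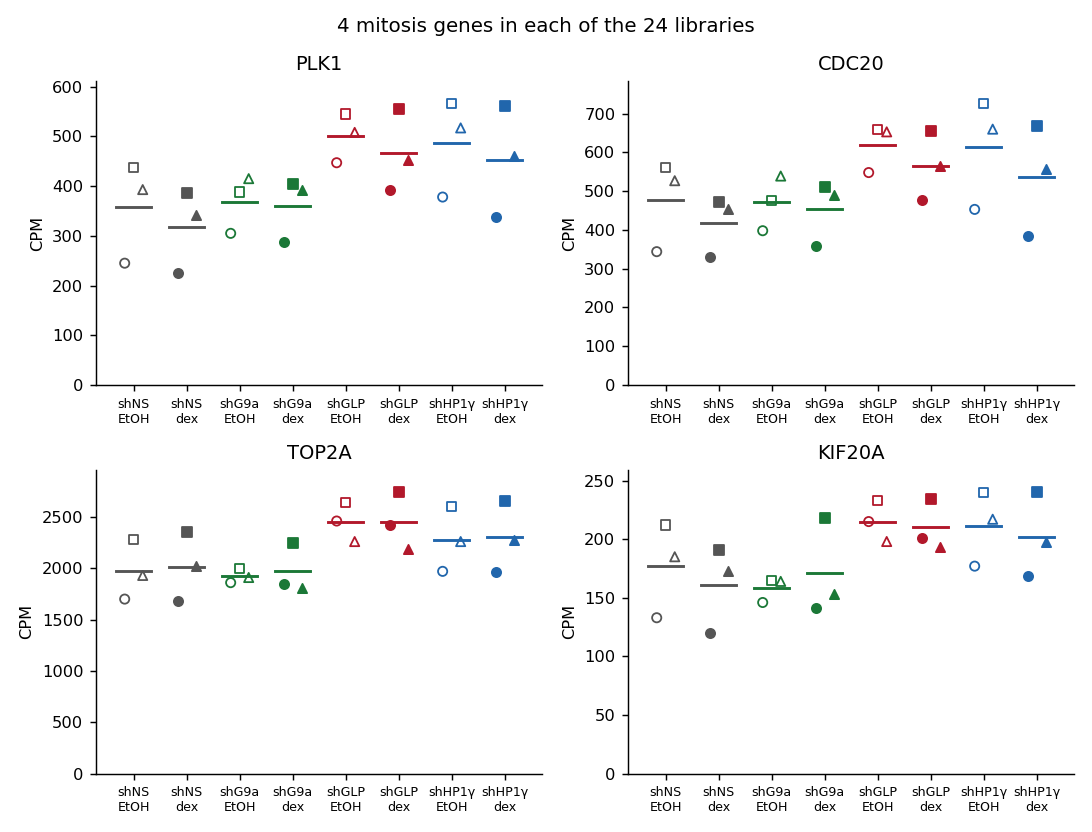
CPM (vertical axis, from 0) of PLK1, CDC20, TOP2A and KIF20A in each library of the 8 conditions, open symbols for ethanol and filled for dex. Circles, squares and triangles are replicates 1, 2 and 3, and each bar is the mean of 3. Replicate 1 is the lowest PLK1 value of every condition, from 225 CPM in dex-treated shNS to 447 CPM in ethanol-treated shGLP.

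In shHP1γ cells PLK1 and CDC20 were higher than in shNS cells in both treatments. In dex 2 of the 38 genes were higher than in shNS and 0 lower, while 4.09% of all tested accessions passed, 2.55% higher and 1.54% lower. In ethanol 2 were higher and 0 lower, while 2.91% passed, 1.62% higher and 1.29% lower. Without the replicate block 0 passed in either treatment. PLK1 had 378, 566 and 517 CPM in ethanol-treated shHP1γ cells and 337, 562 and 460 CPM in dex, which overlapped with shNS in both treatments but were higher at each replicate number. The differences were 0.46 ± 0.086 (SE, adjusted p = 0.00325, edgeR) in ethanol and 0.52 ± 0.086 (adjusted p = 0.000645) in dex, and both calls held in all 24 fits that each left out 1 library, while the ethanol call was lost without replicate 3 of every condition (adjusted p = 0.0956).

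CDC20 had 453, 726 and 660 CPM in ethanol-treated shHP1γ cells and 385, 667 and 557 CPM in dex. These ranges overlapped with shNS, and the value at each replicate number was the higher one. CDC20 rose by 0.36 ± 0.082 (SE, adjusted p = 0.0145, edgeR) in ethanol and by 0.35 ± 0.082 (adjusted p = 0.0141) in dex. The ethanol call was lost without ethanol replicate 1 of shNS or replicate 2 or 3 of shHP1γ (adjusted p of 0.0519 to 0.135), and the dex call without any dex replicate of shNS or dex replicate 2 of shHP1γ (adjusted p of 0.0555 to 0.134). Both calls were also lost without replicate 3 of every condition, and the dex call without replicate 2.

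In shG9a cells none of the 38 tested genes passed against shNS. In dex 0 of the 38 genes passed in edgeR, with 4 at an unadjusted p under 0.05 and 0 by DESeq2, while 8.80% of all tested accessions passed. In ethanol 0 passed, with 2 at an unadjusted p under 0.05 and 0 by DESeq2, while 3.73% of all accessions passed. The median difference was 0.03 in dex and 0.00 in ethanol. PLK1 had 305, 388 and 415 CPM in ethanol-treated shG9a cells and 287, 404 and 392 CPM in dex, within or close to the range of shNS, with differences of 0.07 ± 0.086 (SE) and 0.20 ± 0.086 (adjusted p of 0.782 and 0.159, edgeR). In dex the smallest unadjusted p values belonged to SKA3, a kinetochore protein (-0.71 ± 0.29, adjusted p = 0.131, edgeR), FOXM1, the transcription factor of G2 genes (-0.98 ± 0.42, adjusted p = 0.158), and PLK1. In ethanol they belonged to FOXM1 (0.91 ± 0.42, adjusted p = 0.297, edgeR), SKA3 (0.61 ± 0.29, adjusted p = 0.328) and CENPF (0.16 ± 0.082, adjusted p = 0.393). FOXM1 and SKA3 had at most 21 and 31 counts in a library.

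**Figure D3:**
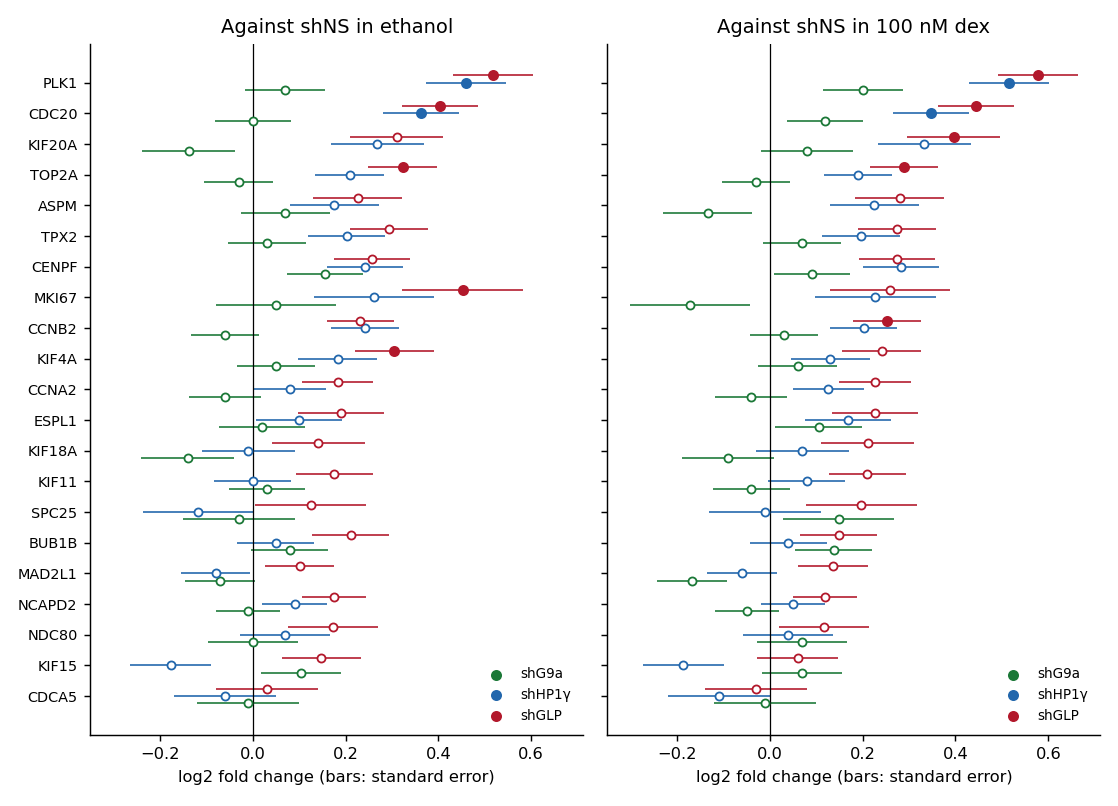
Difference from shNS on the log2 scale (horizontal axis, bars are standard errors) for the 21 mitosis genes with a mean of at least 500 counts, in ethanol and in dex, colored by shRNA. Filled points passed an adjusted p of 0.05 in edgeR. PLK1 in dex lies at 0.58 for shGLP, 0.52 for shHP1γ and 0.20 for shG9a, and no shG9a point is filled.

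The comparisons within 1 treatment rest on 3 libraries against 3, so each depletion was also compared with shNS over ethanol and dex together. This contrast was chosen after the data had been seen. The fit has no term for a line within a replicate number, so it treats the 2 treatments as independent. In shHP1γ the genes with 1 accession deviated from their mean by a median of -0.21 (ethanol) and -0.31 (dex) in replicate 1. In replicate 2 the values were 0.26 and 0.22. Standard errors and p-values over both treatments, here and between lines, may therefore be too small. Pairs of libraries over both treatments stand for 3 replicate numbers. Over both treatments 14 genes were higher in shGLP and 0 lower, while 10.0% of all accessions passed, 5.79% higher and 4.23% lower. They were the kinase PLK1, the cyclins CCNA2 and CCNB2, the kinesins KIF4A, KIF11, KIF14 and KIF20A, the spindle proteins TPX2, which activates Aurora A, and ASPM, the kinetochore protein CENPF, the anaphase genes CDC20 and ESPL1 (separase), TOP2A and MKI67. Their differences ran from 0.19 ± 0.058 (SE) for KIF11 (adjusted p = 0.0358, edgeR) to 0.55 ± 0.061 for PLK1 (adjusted p = 8.03e-07). Of the 21 genes with a mean of at least 500 counts, 13 were higher, while 9.74% of accessions with such means were. KIF14 had a mean of only 53.0 counts per library. The calls of ESPL1, KIF14 and KIF11 were lost in 16, 13 and 9 of the 24 fits that each left out 1 library, those of ASPM and CCNA2 in 5 and 3, and the other 9 in none. Without replicate 1 of every condition the calls of these 5 genes and of CCNB2, CENPF, KIF20A and MKI67 were lost. The calls of PLK1, CDC20, TOP2A, TPX2 and KIF4A held whichever replicate number was left out. Without the replicate block 1 gene passed.

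In shHP1γ 8 genes were higher over both treatments and 0 lower, while 10.0% of all accessions passed, 6.16% higher and 3.88% lower. They were PLK1 (0.49 ± 0.061, SE), CDC20 (0.35 ± 0.058), KIF20A (0.30 ± 0.072), CENPF (0.26 ± 0.058), CCNB2 (0.22 ± 0.052), TOP2A (0.20 ± 0.052), TPX2 (0.20 ± 0.059) and UBE2C (0.53 ± 0.15), the ubiquitin-conjugating enzyme of the anaphase-promoting complex. UBE2C had a mean of only 73.46 counts per library. The calls of TPX2, UBE2C and TOP2A were lost in 9, 4 and 2 of the 24 fits that each left out 1 library. Without replicate 2 of every condition those of CCNB2 and TPX2 were lost. Without replicate 3 those of CENPF, TOP2A, TPX2 and UBE2C were lost. With no filter on low counts 5 were higher and 2 lower, and the calls of CCNB2, TOP2A and TPX2 were lost. Without the replicate block 0 passed. In shG9a 0 passed in edgeR, with 3 at an unadjusted p under 0.05 and 0 by DESeq2, while 13.6% of all accessions passed.

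The lines were also compared with each other over both treatments, which tests the difference itself. Against shG9a, 14 genes were higher in shGLP and 0 lower, while 15.7% of all accessions passed, 9.26% higher and 6.44% lower. PLK1 was higher by 0.41 ± 0.061 (SE, adjusted p = 3.62e-05, edgeR), CDC20 by 0.36 ± 0.058 (adjusted p = 8.74e-05) and TOP2A by 0.33 ± 0.052 (adjusted p = 7.31e-05), each in 6 of 6 pairs of libraries of the same replicate number and treatment. The checkpoint gene MAD2L1 (0.24 ± 0.053, adjusted p = 0.00296, edgeR) and KIF18A, a motor that dampens chromosome movement (0.29 ± 0.071, adjusted p = 0.00612), were also among them. Against shG9a, 8 genes were higher in shHP1γ, PLK1 by 0.35 ± 0.061 (adjusted p = 0.000283, edgeR), while 15.1% of all accessions passed and 9.43% were higher. KIF15, a spindle kinesin, was the 1 gene lower in shHP1γ than in shG9a, with a difference of -0.27 ± 0.061 (adjusted p = 0.00366, edgeR), and was higher there in 0 of 6 pairs, while 5.65% of all accessions were lower. It had 213, 266 and 251 CPM in ethanol-treated shHP1γ and 308, 305 and 273 CPM in shG9a, without overlap, and 211, 273 and 248 CPM against 286, 337 and 254 CPM in dex, with overlap.

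By role, the kinesins and spindle proteins had the most genes called in shGLP over both treatments, 6 of 9 tested, with a median of 0.25. Of all accessions 5.79% were higher, and 9.74% of those with a mean of at least 500 counts. The roles differ in counts, so these shares do not rank them. In the kinetochore group, CENPA, CENPE, NUF2 and SKA3 had means of 8.375 to 40.29 counts. Of the cyclins and mitotic kinases 3 of 7 tested were higher, with a median of 0.20, and of the condensin and chromosome structure group 2 of 6, also with a median of 0.20. The genes of anaphase and cohesion control gave 2 of 5, those of the centromere, kinetochore and checkpoint 1 of 9, and those of cytokinesis 2 of 4, KIF20A and KIF14, which are also counted among the kinesins. Of the chromosomal passenger complex 0 of 3 passed in edgeR, and AURKB, INCENP and CDCA8 (borealin) had means of 7.833 to 23.92 counts. For AURKB the difference in shGLP was 0.29 ± 0.30 (SE) in ethanol and 0.06 ± 0.28 in dex (adjusted p of 0.790 and 0.955, edgeR). A second tested AURKB accession, NM_001313953, was higher in shGLP in dex by 1.06 ± 0.24 (SE, adjusted p = 0.00613, edgeR). Its counts in dex were 11, 12 and 17 in shNS and 24, 22 and 29 in shGLP. In ethanol it differed by 0.555 ± 0.22 (adjusted p = 0.286, edgeR), and over both treatments by 0.81 ± 0.16 (adjusted p = 0.00155). The 2 accessions of the Aurora B gene therefore did not give the same call, and whether they differ was not tested.

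Other values moved with the lines. Beside the shGLP results, the summed myeloid markers LYZ, MPO, CD14 and ITGAM were at 20.4 CPM or more in every shGLP library and at 2.74 to 11.7 CPM in the others. Over both treatments LYZ was higher in shGLP than in shNS by 2.96 ± 0.22 on the log2 scale (SE, adjusted p = 2.02e-09, edgeR), CD14 had at most 4 counts in a library, and ITGAM was at 0. The summed B-cell precursor markers, mostly RAG1, were at 2240 to 2680 CPM in shGLP, 2140 to 2880 in shG9a, 1550 to 1800 in shNS and 1150 to 1680 in shHP1γ. Of the 10 B-cell precursor markers, CD79B, DNTT and CD22, each with several accessions, were at 0, while T cell and erythroid markers summed to at most 0.513 CPM. The part of these differences between the lines in the mitosis gene results was not tested. The paper reports efficient depletion of G9a, GLP and HP1γ by their shRNAs, from immunoblots and RT-qPCR. In these counts the shRNA targets could be checked only in part. G9a mRNA was not analysed here. EHMT1 (NM_001354259) was lower in shGLP by -0.51 ± 0.15 (SE, adjusted p = 0.0255, edgeR) over both treatments and did not pass in either alone. Of 2 tested CBX3 accessions, NM_016587 was lower in shHP1γ by -0.55 ± 0.15 (adjusted p = 0.0231, edgeR) and NM_007276 differed by -0.23 ± 0.17 (adjusted p = 0.479), with all of these under 6 CPM.

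The dex comparisons addressed whether the hormone changed the mitosis genes within 8 h. In shNS cells 0 of the 38 genes passed in edgeR, with 5 at an unadjusted p under 0.05 and 0 by DESeq2, while 9.95% of all tested accessions passed. In shGLP and in shHP1γ cells 0 passed, with 1 at an unadjusted p under 0.05 in each and 0 by DESeq2, while 3.29% and 3.22% of all accessions passed. In shG9a cells MAD2L1 alone fell, while 6.24% of all accessions passed, 2.98% lower and 3.26% higher. By contrast FKBP5, a standard glucocorticoid target, rose 3.37-fold in shNS cells (adjusted p = 1.41e-08, edgeR).

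MAD2L1 had 207, 238 and 255 CPM in ethanol-treated shG9a cells and 184, 188 and 201 CPM in dex, without overlap. It fell by 0.28 ± 0.075 (SE, adjusted p = 0.0257, edgeR). The call was lost without any ethanol replicate of shG9a or without its dex replicate 2 (adjusted p of 0.0521 to 0.16). It was also lost without replicate 2 or replicate 3 of every condition. In shNS cells MAD2L1 had 235, 252 and 245 CPM in ethanol and 190, 242 and 215 CPM in dex, a difference of -0.18 ± 0.075 (adjusted p = 0.142, edgeR). The dex response of MAD2L1 in shG9a differed from that in shNS by -0.10 ± 0.11 (adjusted p = 0.871, edgeR), so a difference between the lines was not detectable.

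Averaged over the 4 lines, which compares 12 libraries with 12, dex lowered 4 genes and raised 1, while 23.8% of all accessions passed, 13.4% lower and 10.3% higher. Among accessions with a mean of at least 500 counts 29.8% were lower, beside 4 of 21 mitosis genes, a share of 19.0%, which was not above that of the well-counted accessions. MAD2L1 fell by 0.19 ± 0.038 (SE, adjusted p = 0.000464, edgeR) and CCNA2, cyclin A2, by 0.17 ± 0.039 (adjusted p = 0.00194). KIF11, the motor that separates the spindle poles, fell by 0.14 ± 0.041 (adjusted p = 0.014, edgeR) and CDC20 by 0.15 ± 0.041 (adjusted p = 0.0104). Without replicate 3 of every condition the calls of CCNA2, CDC20 and KIF11 were lost (adjusted p of 0.071, 0.232 and 0.148, edgeR), that of KIF11 also without replicate 2 (0.0786), and all 3 without the replicate block, while that of MAD2L1 was not. In 12 pairs of libraries of the same line and replicate number, dex was the higher in 0 for MAD2L1, CCNA2 and KIF11 and in 1 for CDC20. CCNA2 shows the size of the effect: in shNS it had 401, 477 and 444 CPM in ethanol and 338, 427 and 387 CPM in dex, groups that overlapped.

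AURKB (NM_001313951, chr17:8108051-8113918, GRCh37, minus strand) rose by 0.47 ± 0.15 (SE, adjusted p = 0.0214, edgeR) over the 4 lines, in 10 of 12 pairs. It had 2.17, 1.56 and 1.44 CPM in ethanol-treated shNS cells and 2.39, 2.66 and 2.18 CPM in dex. The call was lost without dex replicate 3 of shGLP (adjusted p = 0.0523), without replicate 2 or 3 of every condition (0.291 and 0.0911), and with all AURKB accessions summed. The second accession, NM_001313953, differed by -0.17 ± 0.12 (adjusted p = 0.397, edgeR), a difference of the opposite sign. PLK1 differed by -0.11 ± 0.043 (adjusted p = 0.0736, edgeR) over the 4 lines.

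**Figure D4:**
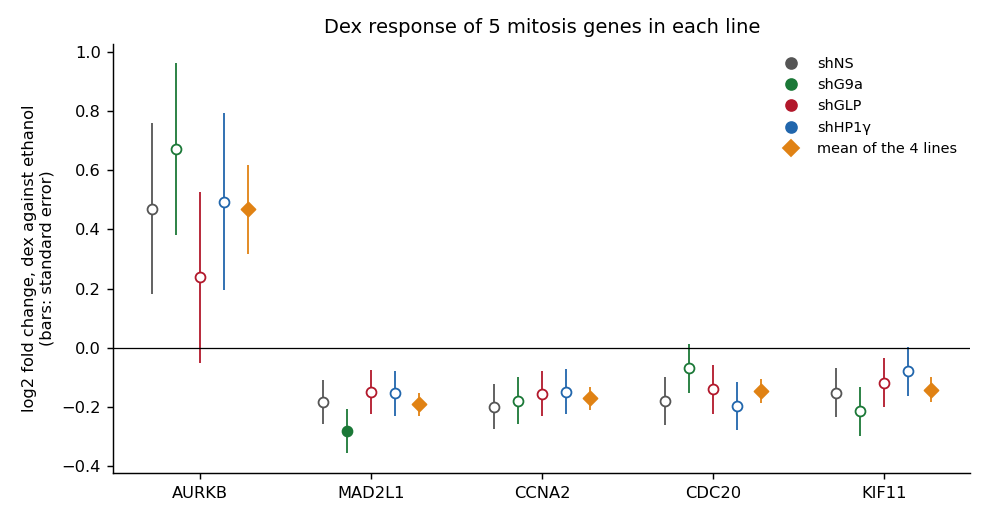
Dex against ethanol on the log2 scale (vertical axis, bars are standard errors) for the 5 genes called over the 4 lines, in each line (circles) and averaged (diamonds). Filled symbols passed an adjusted p of 0.05 in edgeR. MAD2L1 lies between -0.28 and -0.15 in the lines, and AURKB is the gene above 0, with the widest bars.

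Whether a depletion changed the dex response was tested by the interaction of dex with each shRNA. For shG9a, shGLP and shHP1γ 0 of the 38 genes passed in edgeR, with 2, 1 and 1 at an unadjusted p under 0.05 and 0 by DESeq2 in each, while 0.0885%, 0.118% and 0.0197% of all accessions passed. The smallest unadjusted p values belonged to SKA3 for shG9a (-1.32 ± 0.41, SE, adjusted p = 0.612, edgeR) and for shHP1γ (-1.20 ± 0.42, adjusted p = 1), and to SMC2, a condensin subunit with a mean of 28.46 counts, for shGLP (-0.70 ± 0.32, adjusted p = 1). For PLK1 the dex response differed from that in shNS by 0.13 ± 0.12, 0.06 ± 0.12 and 0.06 ± 0.12 in shG9a, shGLP and shHP1γ (adjusted p of 0.840, 1 and 1, edgeR).

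The pathway was wider than the 54 genes, and 3 further lists were read from the same fit. Of 58 other mitosis genes 34 were tested, and over both treatments 7 were higher in shGLP and 0 lower, with a median of 0.19, beside 5.79% higher and 4.23% lower over all accessions. They were FAM83D (0.35 ± 0.055, SE), which recruits a kinase to the spindle, TROAP (0.28 ± 0.056), TACC3 (0.30 ± 0.066), a spindle protein bound by Aurora A, KIF18B (0.58 ± 0.16), WEE1 (0.31 ± 0.085), which inhibits CDK1, CKS2 (0.20 ± 0.053) and the tubulin TUBB4B (0.32 ± 0.078). In shHP1γ 3 were higher and 0 lower, with a median of 0.10, beside 6.16% and 3.88% over all accessions. In shG9a 1 was higher and 3 lower, with a median of -0.01, beside 13.6% called over all accessions. Of 38 S-phase genes 22 were tested, and in shGLP 0 passed in edgeR, with 1 at an unadjusted p under 0.05 and a median of 0.00, beside 10.0% called over all accessions. In shHP1γ 1 was lower, the cyclin gene CCNE2 (-0.36 ± 0.060), with a median of -0.09, beside 3.88% lower over all accessions.

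**Figure D5:**
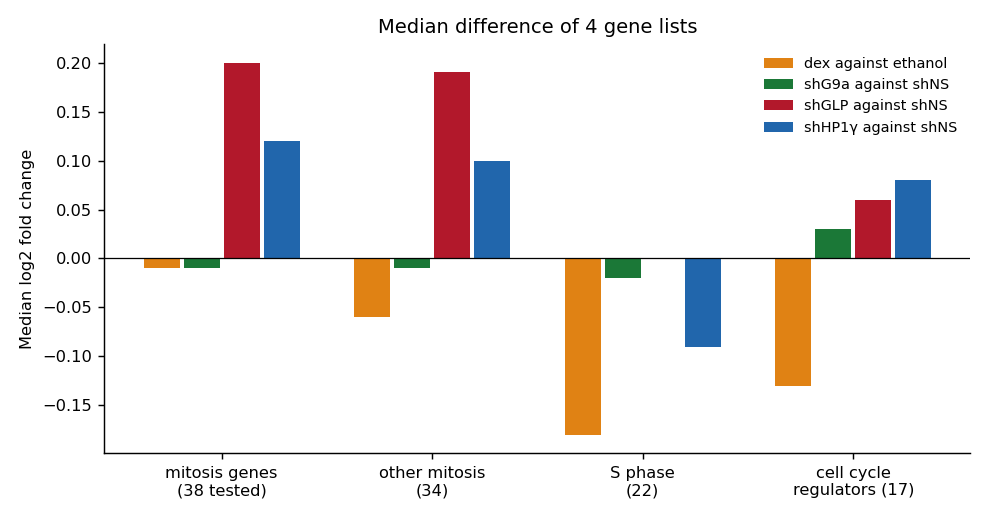
Median log2 fold change (vertical axis, bars from 0) of 4 gene lists for dex against ethanol over the 4 lines and for each shRNA against shNS over both treatments. The mitosis genes and the other mitosis genes have medians of 0.20 and 0.19 in shGLP, and the S-phase genes 0.00, while the S-phase genes have the lowest median with dex, at -0.18.

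Over the 24 libraries, the transcripts whose log2 CPM followed PLK1 most closely, a list chosen after the values were seen, were CDC20 (Pearson's r = 0.978), SAPCD2 (0.944), CENPF (0.943), FAM83D (0.933) and KIF20A (0.922). For AURKB they were AEN (0.787), CDK9 (0.766), CHTF18 (0.763), RAD9A (0.757) and KIF26A (0.756), none of them a mitosis gene of the list, at the low counts of the AURKB accession. The libraries share replicate numbers, lines and depth, and these correlations describe them without a test.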

How the data were processed

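Paired-end RNA-seq of 24 Nalm6 libraries was analysed from the table of raw counts per RefSeq accession. The authors' methods give trimming, alignment by HISAT2 to build hg19 (GRCh37) and counting over RefSeq by GenomicAlignments. The deposited counts, although named for CPM, are whole numbers with unequal library totals. Counting mode, strand and RefSeq release are not given in the sources used here. A second table holds the authors' log2 fold changes and adjusted p-values, as deposited, for 4 comparisons, and only its gene symbols were used, with those of RefSeq. Columns were assigned to conditions by their names. Gene coordinates are those of GRCh37 and promoters those of GRCh38.p14. Genes of overlapping or near-identical sequence cannot be told apart in such counts.

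The test was that of edgeR 4.0.16 under R 4.3.3 (upper quartile scaling, more than 1 CPM in at least 2 libraries, quasi-likelihood F test, Benjamini-Hochberg over 10167 accessions) in 1 fit, whose terms were the 8 groups and a block for the replicate number. Log2 fold changes carry the standard error of that fit. Replicates of a condition were made on different days, per the labels, which do not say that a number marks the same day in every line. Across transcripts, deviations of same-numbered libraries from their group means correlated at 0.0122 to 0.535 (median 0.147, 84 pairs). Libraries of different numbers and groups correlated at -0.408 to 0.132 (median -0.0868, 168 pairs). Deviations cancel within a group, so both sets of correlations are not independent of each other. No library duplicated another, with chi-square per degree of freedom of 3.362 to 39.13 between replicates. P-values measure the spread between replicates of a condition that the block leaves, estimated over all 24 libraries in the 1 fit. The fit was tested on 5 simulated tables, which were drawn without differences between replicate numbers and so did not test the replicate block. Alternatives were TMM scaling, DESeq2 1.42.0, no filter, no block, counts summed per gene and leaving out each replicate, and, added after seeing the data, each library left out and the contrasts over both treatments. The members and lists were chosen with earlier results of these data known. The text names AURKA, AURKB, CCNB1, CDK1 and PLK1, members past the threshold (at most the 8 largest changes each way), the 3 smallest p where none passed, the extremes of level, members under the filter, and the 5 transcripts most like AURKB. Genes named for the wider contrasts, and those most like PLK1, were chosen after their values were seen. Low counts limit precision: depth was 9289533 to 14387770 per library, and standard errors are given beside each difference.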

Additional observations from a re-analysis of the deposited data

How the results depend on the processing

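The calls depended most on the replicate block. Without the replicate block, which ignores the pairing by number, the members called fell to 0 for shGLP and for shHP1γ against shNS in dex and in ethanol, to 0 for dex in shG9a, to 2 for dex over the 4 lines, to 1 and 0 for shGLP and shHP1γ over both treatments, and to 2 and 1 for shGLP and shHP1γ against shG9a. For the 4 comparisons within 1 treatment, PLK1 kept its direction but had adjusted p of 0.254 to 0.524 (edgeR). With counts summed per gene, 4 members in place of 2 passed for shHP1γ in dex. TMM scaling, DESeq2 and no filter on low counts moved no count of members by more than 1.5 times. The split of calls moved for shHP1γ over both treatments, from 8 higher and 0 lower to 5 and 2 with no filter and to 8 and 1 with TMM scaling or DESeq2, and for shHP1γ against shG9a from 8 and 1 to 6 and 2 with no filter. Of the same-numbered pairs, not every correlation was above 0.1, so the numbers may not pair all samples.

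Leaving out each replicate number in turn gave 0 to 2 members for dex in shG9a, 1 to 5 for dex over the 4 lines, 0 to 1 for shG9a in dex, 2 to 2 for shGLP in dex, 1 to 5 for shHP1γ in dex, 1 to 3 for shGLP in ethanol and 0 to 3 for shHP1γ in ethanol. Over both treatments it gave 0 to 1 for shG9a, 5 to 11 for shGLP and 4 to 13 for shHP1γ, and against shG9a 7 to 14 for shGLP and 3 to 18 for shHP1γ. Leaving out single libraries gave 0 to 4 for dex in shG9a, 0 to 2 for shG9a in dex, 2 to 8 for shGLP in dex, 1 to 4 for shHP1γ in dex, 1 to 7 for shGLP in ethanol and 1 to 4 for shHP1γ in ethanol. Over both treatments it gave 9 to 17 for shGLP and 5 to 11 for shHP1γ, and 6 to 14 for shHP1γ against shG9a. The lowest counts for shGLP came without replicate 1 of shNS or of shGLP, those for shHP1γ over both treatments without ethanol replicate 1 of shNS, and those for shHP1γ against shG9a without dex replicate 2 or ethanol replicate 3 of shHP1γ. The cause was not tested. No called gene reversed its direction under any of these settings. With 3 replicates and few reads for genes of several accessions, small differences in those genes were not detectable at this depth, and 16 of the 54 genes could not be tested.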

Other observations

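Some genes of cell cycle control and of DNA replication were lower with dex, as were many well-counted accessions. Of 27 regulators of the cell cycle programme 17 were tested, and dex over the 4 lines lowered 7 and raised 2 in edgeR, with a median of -0.13. Of all tested accessions 23.8% passed, 13.4% lower and 10.3% higher. Among accessions with a mean of at least 500 counts 29.8% were lower. CCND3, the cyclin D3 gene, fell by 0.81 ± 0.11 (SE, adjusted p = 3.14e-06, edgeR), CDK6, a kinase partner of cyclin D, by 0.65 ± 0.15, and CDK4, the other such kinase, by 0.23 ± 0.044. TFDP1, the dimer partner of E2F, fell by 0.49 ± 0.11, and RB1, the retinoblastoma gene, by 0.13 ± 0.032. CDKN1B, the inhibitor p27, rose by 0.14 ± 0.043, in 12 of 12 pairs of libraries of the same line and replicate number.

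Of the 22 tested S-phase genes, dex lowered 7 and raised 1, with a median of -0.18, beside 13.4% lower and 10.3% higher over all accessions. Among accessions with a mean of at least 500 counts 29.8% were lower, and the share of S-phase genes lowered was close to this. MCM6 of the replicative helicase fell by 0.28 ± 0.055 (SE, adjusted p = 0.00059, edgeR), MCM3 by 0.43 ± 0.14, CDC6, which loads the helicase, by 0.23 ± 0.069, and FEN1, the flap nuclease, by 0.20 ± 0.054. CCNE2, cyclin E2, rose by 0.13 ± 0.042. In dex, CCNE2 was lower in shHP1γ than in shNS by -0.53 ± 0.084 (adjusted p = 0.000379, edgeR), and CCND2, cyclin D2, was higher by 0.80 ± 0.17 (adjusted p = 0.00567).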
